A study of Mus musculus with 5 samples.

Results

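The genes described here are 8 noncoding RNA genes of the mouse, among 51912 gene IDs counted in each library: Rn7s1 and Rn7s2, which both encode 7SL RNA and are summed below as 7SL, Rn7sk (7SK RNA), Rmrp, Rpph1, Terc, Malat1 and Neat1. They were picked by symbol as abundant structural or nuclear RNAs, with their counts and their shares of each library in view, so their levels are given as a description without a test. RNA came from tissue labelled dorsolateral prostate of 5 male mice aged 7 months, all Ghrflox/flox with SV40 C3(1) T-antigen+/0, a transgene that puts a viral oncoprotein under a prostate-active promoter. All 5 had tamoxifen, 250 mg/kg a day for 5 days, with collection 1 month later, and the series calls the libraries biological replicates. The 3 mice of the deletion group also carried ROSA26Cre-ERT2+/0, a tamoxifen-activated recombinase expressed from a ubiquitous locus, while the labels of the 2 tamoxifen controls list no Cre. The presence of Cre and the deletion of Ghr, the growth hormone receptor gene, therefore cannot be told apart. The comparison asks how the tissue's RNA differed between these groups.

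Total expected counts were 13812483 to 47656216 per library. The targeted gene, Ghr, read 14.4 and 31.2 CPM with tamoxifen alone and 8.13, 20.9 and 12.1 CPM where Cre was also present, after the scaling described below (log2 fold change -0.73, SE 0.515, adjusted p = 0.995 in the edgeR fit). The groups overlapped, so counts over the whole gene do not separate them, and the groups are called here by their labels. The prostate's defining markers were scarce: Pbsn, a prostate-specific secretory gene, had 411 counts in control replicate 1 and 1 to 8 elsewhere, and Hoxb13, a prostate lineage factor, had 0 to 13 counts, with 0 in control replicate 2 and deletion replicate 1. The 9 genes listed as prostate markers summed to 1.32% and 0.0133% of counts in the controls and to between 0.00753% and 0.0184% in the deletion group. Nearly all of the 1.32% of control replicate 1 was Ceacam10 (523649 counts) and Spink1 (102619), and Fkbp5, with 2834, led the other 7. Ceacam10 had 133 to 919 counts and Spink1 1 to 232 in the other libraries. Both were highest in the library with most Svs1 (below), so this sum is not taken as a measure of prostate RNA. Seminal vesicle genes (9 symbols) made up 35.6% of the counts of control replicate 1 and 27.4% and 28.7% of those of deletion replicates 1 and 2, but 2.78% for control replicate 2 and 1.43% for deletion replicate 3. The makeup of that sum differed: control replicate 1 had 1828687 counts of Svs1, against 177 for deletion replicate 1 and 2 for deletion replicate 2, and Svs3a, Svs3b, Svs6 and Spinkl were scarce in the latter libraries too, in which Svs2, Svs5 and Pate4 made up most of the sum. Vas deferens markers (Akr1b7 and Crisp1) were 0.240% of the total for control replicate 2, 0.515% for deletion replicate 1 and 0.367% for deletion replicate 2, against 0.000304% in control replicate 1 and 0.00552% in deletion replicate 3. The urothelial gene Upk3a had 1046 counts in deletion replicate 3 and 0 elsewhere. Dividing-cell markers (4 genes) were 0.0107% and 0.0062% in the controls and 0.000589% to 0.000839% in the deletion group. The part of these tissue differences in the values below was not tested. Over all genes the edgeR quasi-likelihood test called 0 of 18614 (0% called) at an adjusted p under 0.05, while 915 had an unadjusted p under 0.05 (4.92%). DESeq2 called 164 (0.881%) and limma-voom 0.

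These RNAs work as parts of ribonucleoprotein particles. 7SL is the scaffold of the signal recognition particle (SRP), a largely cytoplasmic particle that brings ribosomes making secreted and membrane proteins to the endoplasmic reticulum, a busy route in glands that secrete seminal fluid. 7SK holds the elongation kinase P-TEFb inactive together with HEXIM proteins. Rmrp and Rpph1 are the RNA subunits of RNase MRP, which acts in ribosomal RNA processing, and of RNase P, which trims the leader off precursor tRNAs, and both enzymes share most of their proteins. Terc is the template RNA of telomerase. Malat1 collects in nuclear speckles, and Neat1, above all its long transcript, builds paraspeckles. RNA polymerase III makes 7SL, 7SK, Rmrp and Rpph1, and RNA polymerase II makes Malat1, Neat1 and Terc.

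The transcripts of Rn7s1 and Rn7s2 in GENCODE release M21 were 100% identical over 300 bases, with 0 differing positions. That identity is why a read from either copy cannot be placed and why the sum is used. The sequences of 3 other short RNAs, from the same release, are given as DNA letters, 5′ to 3′. In 7SK the capitals mark each GATC. Repeats with these letters in its first hairpin are known to be bound by HEXIM proteins, but the capitals do not tell which matches are bound. Rmrp and Rpph1 are shown because their ratio is described below, and they carry no capitals.
Rn7sk, bases 1 to 300 of 331: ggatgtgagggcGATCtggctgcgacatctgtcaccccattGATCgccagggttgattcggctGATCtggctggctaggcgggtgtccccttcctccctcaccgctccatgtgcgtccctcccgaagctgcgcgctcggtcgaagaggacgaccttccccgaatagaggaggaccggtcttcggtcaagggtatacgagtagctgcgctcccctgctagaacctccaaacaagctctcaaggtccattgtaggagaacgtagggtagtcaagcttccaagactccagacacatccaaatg
Rmrp: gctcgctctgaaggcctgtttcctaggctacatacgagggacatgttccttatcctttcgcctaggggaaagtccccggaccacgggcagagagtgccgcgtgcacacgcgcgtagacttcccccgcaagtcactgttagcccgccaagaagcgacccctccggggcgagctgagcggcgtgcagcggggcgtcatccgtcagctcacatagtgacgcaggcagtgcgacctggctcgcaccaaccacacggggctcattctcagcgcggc
Rpph1, bases 1 to 300 of 319: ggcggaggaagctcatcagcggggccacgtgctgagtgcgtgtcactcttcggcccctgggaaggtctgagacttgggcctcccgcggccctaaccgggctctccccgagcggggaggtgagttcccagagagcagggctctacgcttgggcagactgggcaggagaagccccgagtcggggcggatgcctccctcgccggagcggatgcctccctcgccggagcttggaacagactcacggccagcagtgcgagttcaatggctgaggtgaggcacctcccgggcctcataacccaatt
GATC, which reads the same on both strands and shares no base with the next match, occurred 3 times in 7SK, at positions 13, 42 and 64 from its first base. Among 4689 GENCODE transcripts of 300 to 360 bases, 66.4% held at least 1 GATC and 9.15% held at least 3, so the count is a description of the sequence and not a site call. On GRCm38, Rn7s1 lies on the plus strand of chromosome 12 from 69159295 to 69159594 and Rn7s2 on the opposite strand from 69361182 to 69361481, 201587 bases apart. Rn7sk spans 78175303 to 78175633 on chromosome 9. Rmrp spans 43492788 to 43493058 on chromosome 4 and Rpph1 50807449 to 50807767 on chromosome 14, and these 3 genes are on the minus strand. The files list 1 transcript for each of these 5, as long as the gene, so the whole span is exonic and noncoding.

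7SL was the most abundant RNA per length in all 5 libraries and made up more of the controls on average, but the groups overlapped. Its part of all counts was 21.8% for control replicate 1 and 7.25% for control replicate 2, against 10.5%, 5.78% and 2.03% for deletion replicates 1, 2 and 3. The group means were 14.5% ± 10.3 (SD, n = 2) and 6.09% ± 4.23 (SD, n = 3). Control replicate 1 stood above every other library and deletion replicate 3 below every other, while deletion replicate 1 exceeded control replicate 2. Counting error was small beside this, with 95% Wilson intervals of at most ± 0.0137 percentage points. By count 7SL held rank 1 in both controls, rank 2 in deletion replicates 1 and 2 and rank 3 in deletion replicate 3.

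With the 9 seminal vesicle genes taken out of the denominator, 7SL was 33.8% and 7.46% of the controls' counts, and 14.4%, 8.11% and 2.06% of those of deletion replicates 1, 2 and 3. Control replicate 1 stayed highest and deletion replicate 3 lowest, while control replicate 2 was then below deletion replicate 2 as well. In TPM, the authors' per-length unit, which sums to the same total in every library and counts only the length open to a fragment, 7SL filled 69.7% and 52.5% of the controls' total and 59.2%, 42.2% and 23.2% of the deletion libraries' total. A TPM of any other gene in these libraries is thus a share of what 7SL leaves. The length open to a fragment was 91.9 to 102 of 7SL's 300 bases, and the implied mean fragment was 205 and 221 bases in the control mice, against 220.1, 209 and 207 bases in the deletion group.

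**Figure D1:**
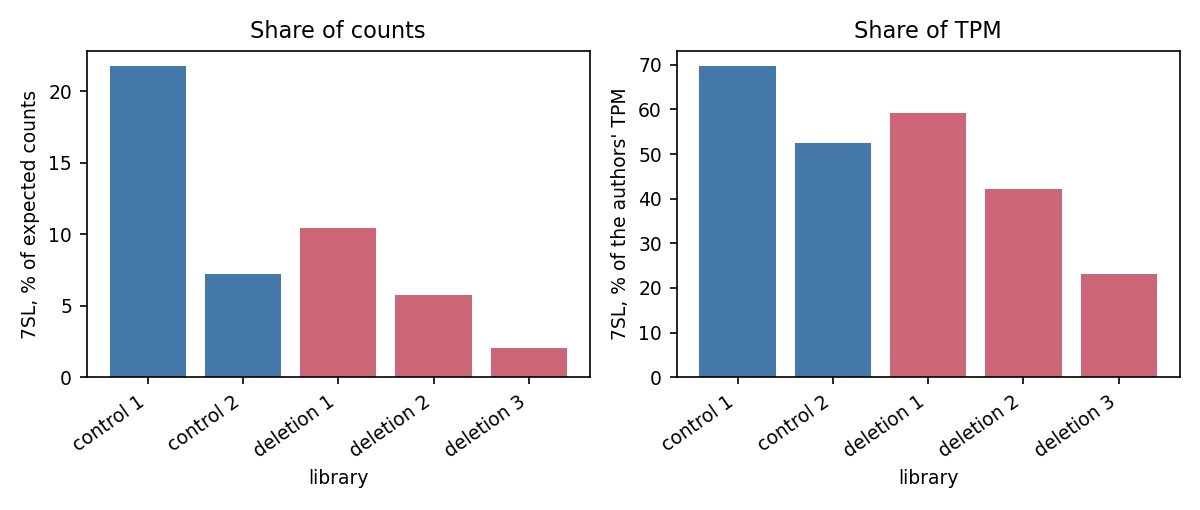
Share of 7SL (Rn7s1 plus Rn7s2) in each library, as a percent of expected counts (left) and of the authors' TPM (right); each bar is 1 library, blue for controls and red for deletion. The share of counts runs from 2.03% in deletion replicate 3 to 21.8% in control replicate 1, and deletion replicate 1 lies above control replicate 2 in both panels.

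The identical copies were not given equal counts in every library. Rn7s1 received 44.4% of the 7SL count of control replicate 1, against 48.9% for control replicate 2 and 49.6% and 49.7% for deletion replicates 1 and 2. In deletion replicate 3 both copies had 338722 counts, and in control replicate 1 they had 4598503 and 5767770. The unequal split was largest in the library with most 7SL, and its cause was not tested. Other genes of the same annotated class (misc_RNA, 558 genes besides those described here) took at most 0.00214% of counts in any library.

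Ribosomal RNA stood apart in control replicate 1. Genes annotated as ribosomal RNA outside the mitochondrial genome took 3.23% of its counts against 0.527% in control replicate 2 and 0.143%, 0.133% and 0.173% in the deletion libraries. The 2 mitochondrial ribosomal RNAs took 8.05% and 5.97% for the control pair, and 4.23%, 4.36% and 7.49% for the deletion group, so that control replicate 1 and deletion replicate 3 were close. The part of these in the 7SL share was not tested.

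To compare libraries beyond their largest transcripts, counts were scaled by trimmed mean of M-values (TMM) to CPM, counts relative to the scaled library total. The factor was 0.491 for control replicate 1, where 7SL and seminal vesicle genes fill much of the library, and 1.497, 1.0004, 0.843 and 1.61 for the others in order. On this scale 7SL read 443317 and 48433 CPM in the tamoxifen control mice, versus 104638, 68553 and 12555 CPM in the deletion mice, a span of 35.3-fold. Control replicate 2 was below 2 of the 3 deletion libraries. Deletion minus control, the log2 fold change was -1.99 (SE 1.52). It was 0.36 without control replicate 1, so its sign rested on that library. Fewer cells of a type and less RNA per cell cannot be told apart in such bulk tissue.

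7SK had the narrowest span of these RNAs after TMM scaling. Rn7sk took 0.377% and 0.778% of counts in the control mice, against 0.705%, 0.720% and 0.756% in the deletion group. Control replicate 1 was low, and the other 4 libraries lay close together. After TMM scaling it read 7675 and 5196 CPM for the control pair, and 7049.7, 8547 and 4681 CPM for the deletion group, a span of 1.83-fold, and control replicate 1 was no longer the lowest. The log2 fold change was 0.071 (SE 0.621), which became -0.19 when control replicate 2 was left out and -0.13 when deletion replicate 2 was.

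The ratio of 7SL to 7SK, both short RNA polymerase III transcripts, does not depend on the scaling, since both counts come from 1 library. There were 57.8 and 9.32 counts of 7SL per count of 7SK in the tamoxifen control mice, versus 14.8, 8.02 and 2.68 in the deletion mice. The order of the libraries was the same as for the 7SL share, with control replicate 1 highest and deletion replicate 3 lowest. The mean log2 ratio was 4.54 ± 1.86 (SD, n = 2) in the control mice, against 2.77 ± 1.25 (SD, n = 3) in the deletion group. The groups overlapped, and the difference of -1.76 was smaller than the SD of the controls.

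**Figure D2:**
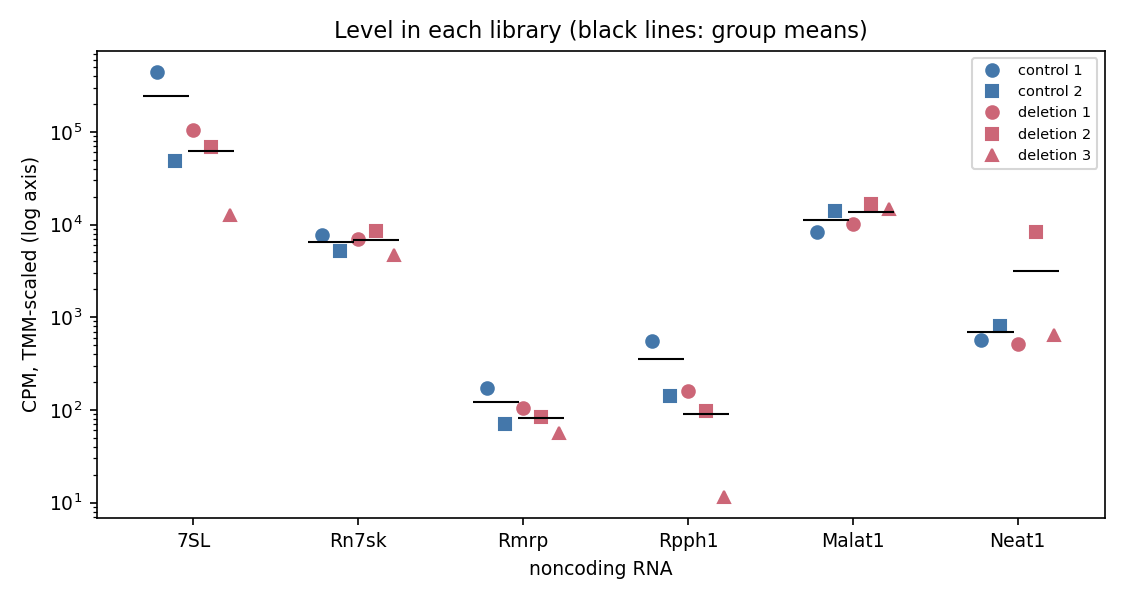
CPM of 6 noncoding RNAs in each library after TMM scaling, on a log axis; blue marks are the 2 controls, red marks the 3 deletion libraries, and black lines the group means. 7SL and Rpph1 spread over 35.3-fold and 48.3-fold, Rn7sk and Malat1 over 1.83-fold and 2.00-fold, and 1 deletion library stands apart for Neat1. The spans depend on the scaling: as shares of counts they were 10.7-fold for 7SL, 14.7-fold for Rpph1, 2.07-fold for Rn7sk and 5.71-fold for Malat1.

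Rmrp and Rpph1, which serve in related enzymes, differed in how far they varied, over 3.06-fold and 48.3-fold in CPM. On that scale both were highest in control replicate 1, next in deletion replicate 1 and lowest in deletion replicate 3. Rmrp had 3989 and 1448 counts for the control pair, and 2979, 2647 and 3008 for the deletion group, or 0.00698% to 0.0105% of counts. The highest share was 1.501 times the lowest, the narrowest span of the 6 RNAs measured above the low-count filter. In CPM it read 171 and 70.0 in the tamoxifen control mice, versus 104, 82.9 and 55.7 in the deletion mice. The groups overlapped, and the log2 fold change was -0.57 (SE 0.455), or 0.21 without control replicate 1.

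Rpph1 had 13105 and 2921 counts in the control mice, against 4619, 3137 and 626 in the deletion group. As a share of counts this was 0.0275% and 0.0211% against 0.0162%, 0.00827% and 0.00187%, with every deletion library below both controls. In CPM it was 560.4 and 141 against 162, 98.2 and 11.6, where deletion replicate 1 lay above control replicate 2, so the separation was not seen after TMM scaling. It was not seen either with the seminal vesicle genes left out of the total, where control replicate 2 had 0.0218% and deletion replicate 1 had 0.0223%. In CPM the groups overlapped for all 6 RNAs that passed the filter, so 0 lay wholly below the controls (10.2% of all tested genes did) and 0 wholly above them (9.43% did), or 19.6% of genes without overlap in either direction. The log2 fold change of Rpph1 was -1.95 (SE 1.02), and it was -0.64 without control replicate 1. Deletion replicate 3, the library lowest in 7SL, was lowest here too.

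Inside each library there were 0.304 and 0.496 counts of Rmrp per count of Rpph1 for the control pair, and 0.645, 0.844 and 4.80 for the deletion group. All deletion libraries lay above both controls, and Rmrp outnumbered Rpph1 by counts in deletion replicate 3 alone. The mean log2 ratio was -1.36 ± 0.498 (SD, n = 2) in the tamoxifen control mice, versus 0.46 ± 1.57 (SD, n = 3) in the deletion mice, a difference of 1.83. This difference was 0.93 without deletion replicate 3, 1.47 without control replicate 1 and 1.81 in the authors' TPM. The groups overlapped for every other ratio taken here. In CPM 19.6% of all tested genes were without overlap, so the separation of this ratio is a description only. By TPM, which is per length, Rmrp was below Rpph1 in both controls (358 against 752, and 1026 against 1297) and above it in the deletion libraries (790.2 against 780.1, 678 against 517, and 1372 against 183). Only 67.99 to 76.4 of Rmrp's 271 bases and 108 to 119.7 of Rpph1's 319 bases were open to a fragment, so the TPM of either rests on a small window.

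Terc was at the limit of detection. It had 0 and 1 counts in the control mice, against 1, 1 and 6 in the deletion group, and it did not pass the filter on low counts. A count of 3, the floor used for an undetected gene, stood for 0.0556 to 0.145 CPM. Deletion replicate 3 had the only value above that floor, and no difference between groups was detectable at this depth. Its gene spans 96414437 to 96414859 on chromosome 3, minus strand.

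Malat1 was the most abundant long noncoding RNA among these genes. It took 0.412% and 2.11% of counts for the control pair, and 1.01%, 1.42% and 2.35% for the deletion group, so control replicate 1 was lowest. In CPM it read 8398 and 14063 in the tamoxifen control mice, versus 10068, 16808 and 14562 in the deletion mice, a span of 2.00-fold with overlapping groups. The log2 fold change was 0.30 (SE 0.713), and it was -0.026 without control replicate 1. There were 52.8 and 3.44 counts of 7SL per count of Malat1 in the control mice, against 10.4, 4.08 and 0.862 in the deletion group, and deletion replicate 3 was the only library with more Malat1 than 7SL by count. The files list 5 Malat1 transcripts, with a weighted mean length of 3957 and 3307 bases in the control mice and 3768, 3671 and 3514 bases in the deletion group. Per count of 7SK, the counts of Malat1 were 1.09 and 2.71 in the control mice and 1.43, 1.97 and 3.11 in the deletion group, again overlapping. Per length 7SL stayed above Malat1 in all 5 libraries, by 28.2-fold in deletion replicate 3 and 1939-fold in control replicate 1.

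Neat1 was set apart by a single library. It stood at 575 and 813 CPM for the controls, against 512, 8302 and 639 CPM for deletion replicates 1, 2 and 3. Deletion replicate 2 was 10.2-fold above the next library, and the other 4 lay within a narrow range in which the groups overlapped. The log2 fold change was 2.18 (SE 1.33), and -0.27 without deletion replicate 2. Malat1 (5795690 to 5802672) lies 22035 bases from Neat1 (5824708 to 5845478) on the minus strand of chromosome 19, and its level in deletion replicate 2 did not stand apart in this way. There were 14.6 and 17.3 counts of Malat1 per count of Neat1 for the control pair, and 19.6, 2.02 and 22.8 for the deletion group.

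In TPM the picture was less clear: Neat1 had 16.3 and 139 in the control mice and 49.7, 357 and 287 in the deletion group, with deletion replicate 3 close to deletion replicate 2. TPM divides by the part of the weighted length open to a fragment and by a total over all genes, 7SL included. The TPM ratio of Malat1 to Neat1, which is free of the second, was 22.1 and 32.6 in the control mice and 30.3, 8.41 and 28.7 in the deletion group, lowest in deletion replicate 2 as by counts.

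The transcript makeup of Neat1 also differed in deletion replicate 2. The authors' software gives each gene a mean transcript length weighted by the estimated share of each transcript, and the files list 3 for Neat1, of 20771, 3004 and 1030 bases. The weighted length was 5884 and 6032 bases in the controls, 5700.03 and 4363 bases in deletion replicates 1 and 3, and 14594 bases in deletion replicate 2. Such a mean bounds the share of the long transcript, the form that scaffolds paraspeckles. That share lay between 65.2% and 68.7% of Neat1 molecules in deletion replicate 2. It lay between 16.2% and 24.6% in control replicate 1, 17.0% and 25.3% in control replicate 2, 15.2% and 23.7% in deletion replicate 1, and 7.65% and 16.9% in deletion replicate 3. The shorter forms share sequence with the long one, so these shares are the software's estimates, with no error given. The low-count filter and TMM do not enter this quantity.

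**Figure D3:**
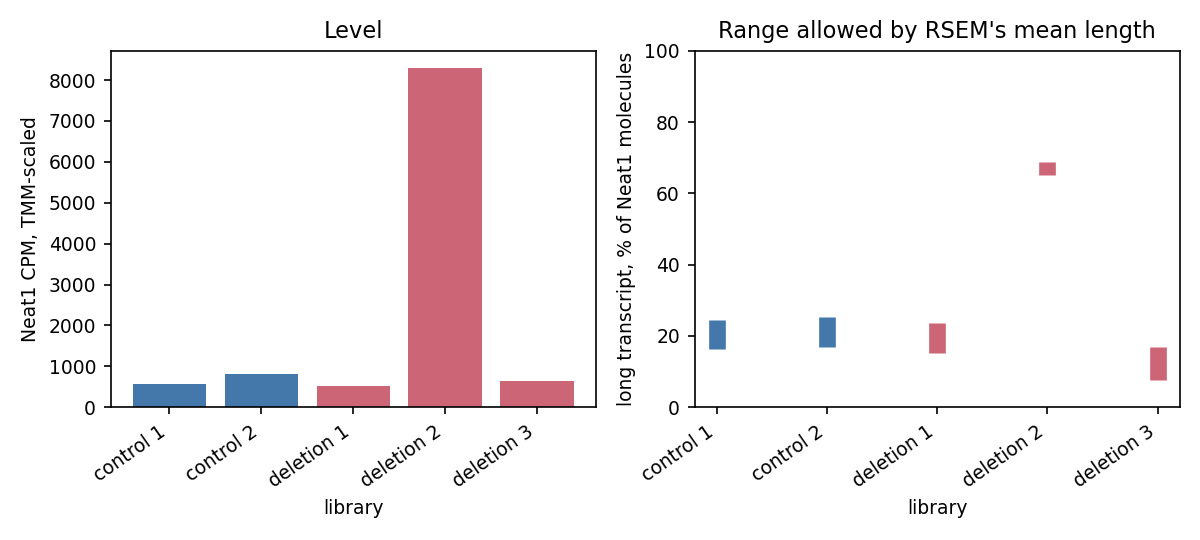
Neat1 in each library, blue for controls and red for deletion: CPM after TMM scaling (left) and the range of the long transcript's share of Neat1 molecules that the weighted length allows (right, vertical bars). Deletion replicate 2 stands at 8302 CPM and 65.2% to 68.7% long transcript, apart from the other 4 libraries in both panels.

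Per length, the order of levels was the same in the group means from 7SL to Malat1. In the controls 7SL had 610627 ± 121581 TPM (SD, n = 2), Rn7sk 26420.3 ± 24055 and Malat1 2448 ± 2954. Rpph1 followed at 1024.5 ± 386 TPM and Rmrp at 692 ± 472, then Neat1 at 77.7 ± 87.0. In the deletion libraries 7SL had 415324 ± 180389 TPM (SD, n = 3), Rn7sk 46533 ± 18815 and Malat1 4246 ± 3530. There Rmrp followed at 947 ± 373 TPM and Rpph1 at 493 ± 299, then Neat1 at 231 ± 161. Terc came last, at 0.115 ± 0.163 and 0.377 ± 0.497 TPM. 7SL stood above 7SK beyond their SDs in both groups. In the controls the neighbours 7SK and Malat1, Malat1 and Rpph1, and Rpph1 and Rmrp did not differ beyond their SDs. In the deletion group the same was true of Malat1 and Rmrp, Rmrp and Rpph1, and Rpph1 and Neat1. These SDs leave out that the RNAs were read in the same libraries. Within a library 7SK was above Malat1 in both controls, where the TPM ratio of Malat1 to Rn7sk was 0.0382 and 0.104. Malat1 was above Rmrp in each deletion library (1507 against 790, 3001 against 678 and 8230 against 1372 TPM). The order of Malat1 and Rpph1 differed between the controls, and that of Rpph1 and Neat1 between deletion libraries.

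**Figure D4:**
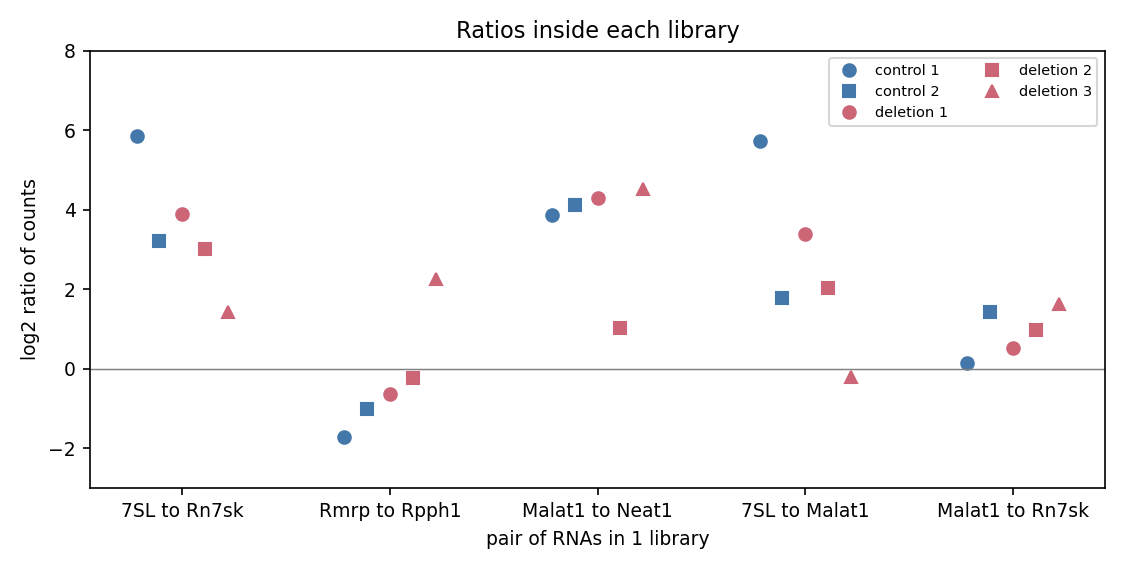
Log2 ratio of the counts of a pair of RNAs inside each library (blue marks controls, red marks deletion), which does not depend on library scaling. The 3 deletion libraries lie above both controls for Rmrp to Rpph1 alone, and 19.6% of all tested genes were without overlap in CPM. Deletion replicate 2 lies apart for Malat1 to Neat1. The Malat1 to Rn7sk pair was added after the other values had been seen.

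The genes that work with these RNAs, and related RNAs, were taken in 9 lists. Of them, 87 genes passed the filter, and edgeR called 0 of them (smallest adjusted p = 0.990). An unadjusted p under 0.05 was found for 1 gene, and DESeq2 called 0. All 87 log2 fold changes lay between -0.92 and 0.98, while those of 7SL, Rpph1 and Neat1 lay outside that range. Without control replicate 1, however, 7SL was at 0.36 and Rpph1 at -0.64, and without deletion replicate 2 Neat1 was at -0.27. These values come from fits of fewer libraries, for which the range of the 87 genes was not taken. They show only that each fold change moved far when a single library was left out. The RNAs were also picked with their levels in view, so their contrast with the 87 genes is a description only. The groups did not overlap for 13 of the 87 (14.9%), against 19.6% of all tested genes, so this share was no higher than the background. Over all 18614 tested genes 9386 were higher by fold change and 9228 lower, with a median log2 fold change of 0.0044. The directions counted in each list below are of genes that were not called.

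Of the SRP proteins and the SRP receptor, 6 of 10 tested genes were higher by fold change and 4 lower, with a median of 0.063. Srprb, the membrane subunit of the SRP receptor, read 61.2 and 35.1 CPM in the tamoxifen control mice, versus 34.5, 31.2 and 19.5 CPM in the deletion mice (log2 fold change -0.76, SE 0.379). It was the 1 member of the list whose groups did not overlap. Srp54a, which binds the signal peptide, had 160 ± 44.7 CPM (SD, n = 2) against 193 ± 38.3 (SD, n = 3). Srp9, which binds the Alu domain of 7SL with Srp14, had 82.3 ± 27.0 against 86.8 ± 37.6 CPM. Where 7SL spanned 35.3-fold, Srp9 ran from 56.1 CPM in deletion replicate 3 to 129 CPM in deletion replicate 2.

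For the 7SK particle and P-TEFb, 6 of 7 genes were lower by fold change, with a median of -0.16, and the groups overlapped for all 7. Hexim1, the P-TEFb inhibitor that 7SK carries, had 32.8 ± 1.68 CPM (SD, n = 2) against 29.2 ± 10.7 (SD, n = 3). Larp7, which binds the 3′ end of 7SK, had 10.5 ± 2.74 against 10.2 ± 2.01 CPM. Hexim2, a lower-expressed relative of Hexim1, had 1.12 ± 0.352 against 0.598 ± 0.285 CPM and the smallest p of the list on the lower side. On the higher side that was Ccnt2, a cyclin of P-TEFb, at 94.6 ± 3.73 against 102 ± 9.73 CPM.

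The proteins of RNase P and RNase MRP had 4 higher and 6 lower of 10 tested genes, with a median of -0.12. Rpp38, a subunit of both enzymes, read 5.47 and 4.93 CPM in the control mice, against 3.15, 1.94 and 3.52 CPM in the deletion group (log2 fold change -0.86, SE 0.460). Rpp30 read 1.88 and 3.05 CPM against 3.75, 4.32 and 3.21 CPM, above both controls in each deletion library. Pop1, the largest subunit, had 4.33 ± 0.312 CPM (SD, n = 2) against 2.95 ± 1.87 (SD, n = 3). These are low levels, and neither Rpp38 nor Rpp30 passed the test.

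In the telomerase list 2 of 7 genes were higher and 5 lower, with a median of -0.24. Tert, the catalytic subunit, was detected in every library, at 2.99 and 3.39 CPM for the control pair, and 2.98, 0.595 and 4.52 CPM for the deletion group, while Terc was near 0. Dkc1, the pseudouridine synthase that stabilises Terc, had 15.2 ± 5.84 CPM (SD, n = 2) against 15.4 ± 2.85 (SD, n = 3). Wrap53, which guides the particle to Cajal bodies, had 6.03 ± 1.82 against 3.93 ± 1.23 CPM, and Nop10 had 16.4 ± 0.952 against 20.8 ± 4.26.

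Paraspeckle proteins were higher by fold change in 7 of 8 genes, with a median of 0.14. No member passed the test. Nono and Sfpq, the core pair that binds Neat1, had 134 ± 3.36 CPM against 137 ± 7.81 and 174.5 ± 19.0 against 189 ± 49.5 (SD, n = 2 and 3). In deletion replicate 2, the library high in Neat1, Nono stood at 145 CPM and Sfpq at 231 CPM, each the highest of the 5 libraries. Nono was little higher there than in control replicate 2, at 137 CPM. Rbm14, the 1 member lower by fold change, had 16.6 CPM in deletion replicate 2, its lowest. Of the remaining members some were highest in that library and some were not. Of the nuclear speckle proteins 4 of 8 were higher and 4 lower, with a median of -0.075. Srrm2, a speckle scaffold, had 754 ± 286 against 607 ± 20.0 CPM, and Srrm1 had 118 ± 15.9 against 192 ± 92.6.

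RNA polymerase III and its factors showed 15 higher and 14 lower of 29 genes, with a median of 0.069. Gtf3c3, a subunit of the TFIIIC factor, read 21.4 and 26.0 CPM in the control mice, against 37.4, 45.3 and 32.8 CPM in the deletion group, with a log2 fold change of 0.70 (SE 0.291). Its unadjusted p was 0.0490 and its adjusted p was 0.990 in the edgeR fit over all genes, so it was not called. Polr3e, a subunit of the polymerase, had 21.5 ± 7.38 CPM (SD, n = 2) against 15.1 ± 1.89 (SD, n = 3). Polr3a, the largest subunit, had 25.4 ± 5.30 against 23.9 ± 2.15 CPM. Maf1, the repressor of the polymerase, read 26.1 and 21.3 CPM for the control pair, and 29.2, 69.3 and 22.2 CPM for the deletion group. Deletion replicate 2 alone was high for Maf1.

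**Figure D5:**
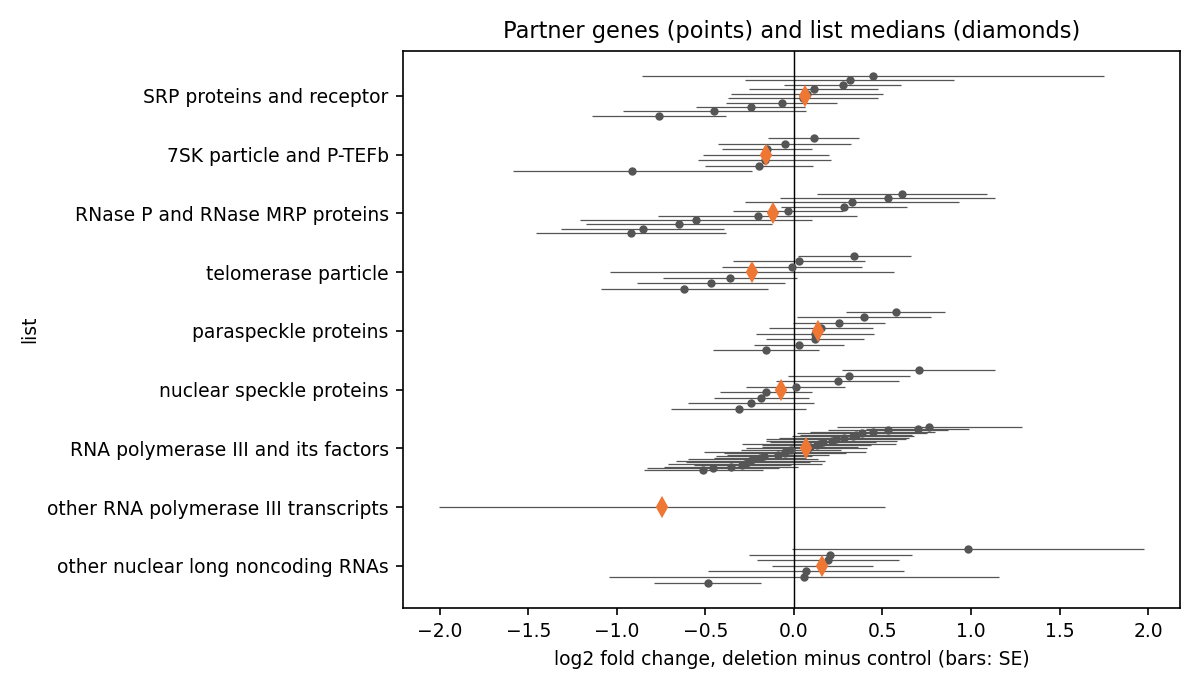
Log2 fold change, deletion minus control, of 87 partner genes in 9 lists (points, with the SE of the edgeR fit as bars) and the median of each list (diamonds). The points lie between -0.92 and 0.98 on both sides of 0, and 0 of the 87 passed the test.

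Other small RNA polymerase III transcripts were nearly uncounted. An RNA shorter than the mean fragment, 205 to 221 bases here, has little length open to a fragment, so low counts of small RNAs do not show low levels. Of 5 in the files, only Rny3, a Y RNA, passed the filter, at 0.941 and 0.242 CPM in the tamoxifen control mice, versus 0.595, 0.470 and 0.0185 CPM in the deletion mice. The Y RNA Rny1 had 0 to 14 counts and the vault RNA Vaultrc5 2 to 30. Among other nuclear long noncoding RNAs 6 of 7 tested were higher by fold change, with a median of 0.16. Firre, a nuclear RNA of the X chromosome, read 132 and 79.5 CPM in the control mice, against 73.6, 74.5 and 77.8 CPM in the deletion group. Meg3, an imprinted RNA, read 1.497 and 3.63 CPM against 1.86, 1.66 and 11.6 CPM.

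The genes whose profile over the 5 libraries lay nearest to 7SL, Rn7sk, Malat1 and Neat1 were taken from 7862 named genes with a mean of at least 10 CPM over the libraries, by the root mean square difference of log2 CPM centred on each gene's mean. For 7SL, whose own profile had a root mean square of 1.66, they were mt-Co2, a mitochondrially encoded cytochrome oxidase subunit, at a difference of 0.362, the glycosyltransferase gene B3gnt7 at 0.376 and Nxpe3 at 0.483. The mt-Co2 levels were 50.5 and 6.87 CPM for the control pair, and 15.1, 13.9 and 2.78 CPM for the deletion group. For Rn7sk they were Dpm2, a subunit of dolichol-phosphate mannose synthase, at 0.0315, Tbc1d22b at 0.0461 and Spcs3, a signal peptidase subunit, at 0.0466. For Malat1 they were the ETS factor gene Elk4 at 0.0305, Dram2 at 0.0618 and the chromatin protein gene Hmgb1 at 0.0758. For Neat1 they were the clock gene Per1 at 0.460 and the zinc-finger factor genes Klf10 at 0.489 and Klf6 at 0.492. Per1 stood at 197 CPM in deletion replicate 2 and 17.0 to 36.1 CPM in the other libraries. All libraries share 1 set of scaling factors, and with 5 points many genes can lie close by.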

How the data were processed

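The 5 libraries came from flash-frozen tissue and a stranded total RNA kit (labels' protocols). Tools listed in the submitters' processing notes are RSEM 1.3.0, STAR 2.5.3a and bcl2fastq 2.20.422, with GRCm38 as the build. Which annotation release and strand setting they ran with is not given in the sources used here. Per the file headers, the authors deposited RSEM's expected counts per gene, which are not normalized, its TPM, and the length and effective length in bases. Multiple placement of reads is resolved by RSEM's estimate, so near-identical copies share reads.

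Symbols were matched for all but 279 of 51912 IDs, and 51633 IDs were in GENCODE release M21. The transcript lengths of the 6 members with 1 transcript were equal in the files and in M21. The 7SL row is the sum of Rn7s1 and Rn7s2. Expected counts were rounded and fitted with edgeR 4.0.16 (R 4.3.3): filterByExpr, TMM, and the robust quasi-likelihood test with group as the only term over 5 libraries, with Benjamini-Hochberg adjustment over 18614 rows. The fit was also run on simulated counts with large changes set in. That run checks the code only, and cannot show how the fit handles smaller changes or differences in tissue between libraries. Alternatives were DESeq2 1.42.0, limma 3.58.1 (voom), other scalings, no filter, a replicate block, separate Rn7s1 and Rn7s2 rows, and each library left out. Shares carry 95% Wilson intervals, which like the floor of 3 counts cover counting error only. Groups and replicate numbers came from the titles.

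The members and lists were chosen with earlier results of these data known. Named were all members, the list member of smallest unadjusted p in each direction, any past the threshold, fixed examples, and the 3 nearest profiles. The Y and vault RNAs were named because their list held few, and 1 gene the rule names is not reported here. The Malat1 to Rn7sk ratio and 2 alternatives (the members left out before normalization, and control replicate 1 and deletion replicate 3 both left out) were added after seeing the data.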

Additional observations from a re-analysis of the deposited data

How the results depend on the processing

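With 2 controls, 1 library can set a sign. Without 1 library at a time, the log2 fold change ranged from -2.84 to 0.36 for 7SL, -0.19 to 0.38 for Rn7sk, -1.08 to 0.21 for Rmrp, -2.65 to -0.64 for Rpph1, -0.026 to 0.71 for Malat1 and -0.27 to 2.71 for Neat1. For Rn7sk both -0.19 (without control replicate 2) and -0.13 (without deletion replicate 2) were on the other side of 0. The difference in mean 7SL share was -8.41 percentage points, ranging from -15.7 to -1.16, -14.0 over protein-coding counts and -19.5 in the authors' TPM. The Malat1 to Neat1 log2 ratio differed by -0.72, ranging from -1.33 to 0.41, the 7SL to Rn7sk ratio from -3.08 to -0.45, the 7SL to Malat1 ratio from -3.99 to -0.054 and the Rmrp to Rpph1 ratio from 0.93 to 2.37.

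The count of genes called was 0 by edgeR, 46 with library totals only (17 higher, 29 lower), 164 by DESeq2 (36 higher, 128 lower), and 0 to 48 without 1 library: 48 without control replicate 2 and 2 without deletion replicate 3. With control replicate 1 and deletion replicate 3 both left out, a choice made after seeing the data, 84 genes were called (24 higher, 60 lower), and the log2 fold changes were 0.83 for 7SL, 0.58 for Rn7sk, 0.41 for Rmrp, -0.12 for Rpph1, -0.070 for Malat1 and 2.43 for Neat1. Library totals gave -1.25 for 7SL, 0.33 for Rn7sk and -0.098 for Rmrp, and limma-voom gave 1.05 for Neat1. None of the 9 partner lists had a called member by edgeR, by DESeq2 or without any 1 library. With the replicate number as a block, 8 genes were called (3 higher, 5 lower) and the log2 fold changes were -0.79 for 7SL, 0.30 for Rn7sk, -0.23 for Rmrp, -1.16 for Rpph1 and 1.59 for Neat1. Same-numbered libraries gave correlations of 0.13 and -0.14 in their deviations from the group means. With 2 controls, the deviations of 1 control mirror those of the other, so these correlations cannot show whether the pairing is real. The block rests on a shared number only. The causes were not tested.

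At this depth Terc could not be compared.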
